A study of Homo sapiens with 8 samples.

Results

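Open chromatin was examined at 6 genes of one interferon-linked group, PARP9, DTX3L, PARP14, PARP15, PARP12 and PARP10, out of 62062 genes annotated on chromosomes 1 to 22 and X. The genes were chosen by name, with earlier results of these data known, so the values below are no independent evidence for the choice. A peak was assigned to a gene when it lay within 1 kb of an annotated transcription start site (TSS), or in the gene body or the 10 kb around it. The peaks came from FAIRE-seq, in which DNA that is free of nucleosomes is recovered from fixed chromatin and sequenced. All 8 libraries were from U2OS, a human osteosarcoma cell line. There were 4 clones, WT_4 and WT_5 with intact ZBTB48 (WT) and KO_C5 and KO_D2 with a knockout of this zinc finger protein (KO). From each clone, 1 library was untreated and 1 was made after 250 U/ml interferon gamma (IFNγ), which the labels put at 24 h while a figure legend of the study names a longer exposure, so the duration is uncertain. Replicate 1 is WT_4 or KO_C5 and replicate 2 is WT_5 or KO_D2. Each genotype is therefore represented by 2 clonal lines, and a difference between genotypes cannot be told apart from a difference between these clones.

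PARP proteins transfer ADP-ribose from NAD to other molecules, and most members studied here attach a single ADP-ribose unit. PARP9 pairs with DTX3L, a ubiquitin ligase, and the pair acts in DNA repair and in the antiviral response. IFNγ signals through its receptor and JAK kinases to promoters that carry gamma-activated sequences (GAS), while complexes with IRF proteins bind interferon-stimulated response elements (ISRE). PARP9, DTX3L, PARP10, PARP12 and PARP14 are known as interferon-stimulated genes. A FAIRE peak reports access to DNA and not transcription, and in a bulk library a site that is open in more cells cannot be told apart from one that is open for longer in each cell.

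Of the 6 genes, 5 had a promoter peak in at least 1 library. The promoter shared by PARP9 and DTX3L, the PARP14 promoter and the PARP12 promoter ranked higher in every IFNγ library than in any untreated library. A peak at the main TSS of PARP10 was listed in all 4 IFNγ libraries and in 1 untreated library. How many promoter regions share this presence was not counted. Of the genes with a promoter peak in some list, 21.2% had one in more IFNγ than untreated lists. PARP15, which lies between DTX3L and PARP14, had no peak in any library.

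Sequence at these promoters is shown because the letters of the ISRE core were present at the 3 promoters that ranked higher after IFNγ. RefSeq promoters (GRCh38.p14, 250 bases before to 50 after each gene start) were matched for 5 of the 6 genes, all but PARP10. Both strands were searched for the ISRE core GAAANNGAAA and for the GAS letters TTCNNNGAA. The sequences below run 5′ to 3′ on the strand given, and capitals mark every ISRE core or GAS match. They cover chr3:122564318-122564347 (plus strand) between and just past the starts of PARP9 and DTX3L, and the 100 bases before the gene start of PARP14 (chr3:122680739-122680838, plus strand), PARP12 (chr7:140062952-140063051, minus strand) and PARP15 (chr3:122577550-122577649, plus strand).
PARP9-DTX3L: acctccagggaagcGAAACTGAAActttgc
PARP14: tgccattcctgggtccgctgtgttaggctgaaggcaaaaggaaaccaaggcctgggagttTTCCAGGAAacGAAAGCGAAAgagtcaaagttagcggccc
PARP12: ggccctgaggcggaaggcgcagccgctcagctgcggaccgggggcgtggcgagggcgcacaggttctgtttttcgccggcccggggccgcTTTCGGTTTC
PARP15: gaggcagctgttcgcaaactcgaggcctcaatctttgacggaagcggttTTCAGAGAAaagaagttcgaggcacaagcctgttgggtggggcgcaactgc

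PARP9 and DTX3L share the same match, chr3:122564332-122564341, which counts once as a piece of DNA. PARP14 carried a GAS match followed by an ISRE core, and the 2 do not overlap. In PARP12 the ISRE core is read from the opposite strand and ends where the gene begins. The PARP15 window held a GAS match and no ISRE core. PARP9 and PARP15 each had a further promoter entry, with starts at chr3:122564784 and chr3:122615615, where no ISRE core or GAS match was found. Over all 34789 RefSeq promoters the ISRE core was found in 3.57% and the GAS letters in 7.65%. These shares count promoter entries, while a gene was counted when any of its entries had a match. A control with the same letters in another order, AAGANNAAGA, was found in 2.18% of promoters and in none of the 5 matched genes. Among related genes with a promoter entry, the ISRE core was found in 0 of 10 other PARP family genes, 0 of 2 deltex genes, 0 of 6 genes for removal of ADP-ribose and 0 of 7 genes of interferon signalling. GAS letters were found in PARP2 and ZC3HAV1, in DTX2, in OARD1, and in IRF1 and IRF9. These are matches of letters, and binding was not measured here.

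The lists held between 16730 and 37533 peaks per library (chromosomes 1 to 22 and X). The IFNγ list was longer in WT_5 (37533 against 29567 untreated), KO_C5 (27457 against 19255) and KO_D2 (24727 against 16730). It was shorter in WT_4 (18913 against 21715). Presence and percentile both depend on the length of a list. Joining peaks across libraries wherever they shared 1 bp or more gave 52105 regions, 22926 of them within 1 kb of a TSS, and 10237 promoter regions were present in all 8 lists. The 6 genes had 19 regions in the gene body or within 10 kb, 7 of them at a TSS. Peak strength is given as the deposited fold enrichment over local background, and as the percentile of the deposited −log10 p among all peaks of the same library, where a library with no peak counts as 0. Of the osteoblast lineage markers, RUNX2, SP7 and COL1A1 had a promoter peak in all 8 lists, ALPL in 4 and SPARC in 5, and IBSP, SPP1 and COL1A2 had none. T cell markers (0 of 3) and the leukocyte gene PTPRC had no promoter peak. Among B cell markers PAX5 had a peak in 7 lists and MS4A1, CD79A and CD79B in none, among myeloid markers SPI1 had one in 1 list and CSF1R in 3, and among epithelial markers EPCAM and KRT8 had one in all 8 lists and CDH1 in 2. The ZBTB48 promoter was open in all 8 lists, which does not check the knockout, since peak lists do not show the coding sequence.

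PARP9 (chr3:122527924-122564577, minus strand) and DTX3L (chr3:122564338-122575203, plus strand) start 38 bp apart and run in opposite directions. One region covered both starts, chr3:122564063-122564847, and it was the only region in or within 10 kb of either gene. Such arrangements are common, with 938 pairs of coding genes starting within 1000 bp of each other in opposite directions, of which 80.8% had a region open in all 8 lists. The PARP9-DTX3L region was also present in all 8 lists, as were promoter peaks of 62.8% of the 22301 genes with a promoter peak in some list.

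**Figure D1:**
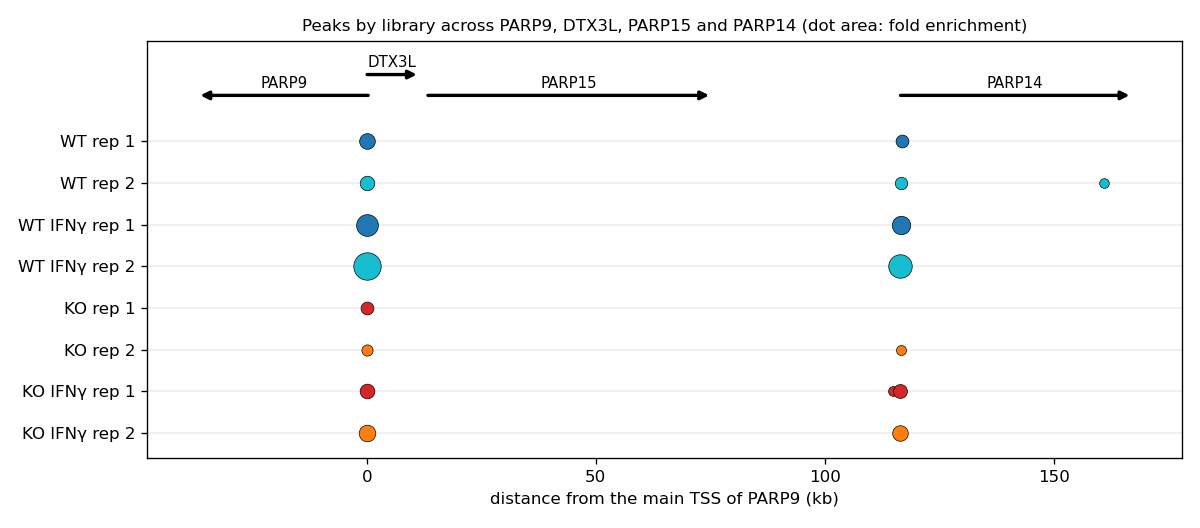
Position of every peak in the 4 neighbouring genes on chromosome 3, with distance from the main TSS of PARP9 in kb on the x axis and the 8 libraries on the y axis. Dot area is proportional to fold enrichment (12.7 to 14.7 in untreated WT and 28.4 to 45.2 in WT after IFNγ at the PARP9-DTX3L promoter), arrows show genes and their direction, and PARP15 has no dot in any library.

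In WT the fold enrichment at the PARP9-DTX3L promoter was 14.7 and 12.7 untreated (replicates 1 and 2) and 28.4 and 45.2 after IFNγ. In KO it was 9.91 and 7.53 untreated and 12.98 and 16.5 after IFNγ. Each clone was thus higher after IFNγ, by ratios of 1.93 in WT_4, 3.57 in WT_5, 1.31 in KO_C5 and 2.198 in KO_D2. On the percentile scale, untreated libraries stood at 49.9 and 56.6 in WT and at 51.8 and 36.0 in KO. After IFNγ they stood at 74.7 and 85.9 in WT and at 67.3 and 83.5 in KO. The lowest IFNγ library lay above the highest untreated library. The mean was 77.8 ± 8.55 after IFNγ and 48.6 ± 8.88 untreated (SD, n = 4 each), a difference of 29.3 points (exact permutation test, two-sided p = 0.0286, the smallest that 70 assignments allow). Paired within clones, the exact sign-flip permutation test gave p = 0.125, the smallest that 4 clones allow. The difference ranked 35 among the 10237 promoter regions open in all lists, whose median difference was 2.30. Among these regions, 0.967% (99) had all IFNγ libraries above all untreated libraries and 9 the reverse. Adjusted over all 22926 promoter regions, the permutation p was 1.0 for each promoter reported here, and no promoter region passed (179 had an unadjusted p below 0.05). Since no permutation p can be below 0.0286, a region could pass only if a large share of all regions reached that value. The adjusted test therefore could not single out a few regions, and no conclusion is drawn from it.

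The width of this peak was 277 to 635 bp untreated and 443 to 772 bp after IFNγ, which overlapped. The summit lay 25 to 70 bp upstream of the main PARP9 TSS in untreated libraries and 6 to 24 bp upstream in IFNγ libraries. These ranges lie 1 bp apart. The share of promoter regions whose summit ranges do not overlap was not counted, so no shift of the summit is concluded. At PARP12 and PARP14 the summit positions of the treatments overlapped. All 8 peaks contained the ISRE core, and their summits were 7.5 to 33.5 bp from its centre.

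PARP14 (chr3:122680839-122730840, plus strand), a mono-ADP-ribosyltransferase with macrodomains that recognise ADP-ribose, begins 116.5 kb from the PARP9 start. Its promoter region, chr3:122680531-122681583, was present in 7 lists and absent from untreated KO replicate 1. In WT the fold enrichment was 9.83 and 9.25 untreated and 20.5 and 33.1 after IFNγ. In KO it was 6.002 in untreated replicate 2, and 11.6 and 14.5 after IFNγ. The ratio within a clone was 2.09 in WT_4, 3.58 in WT_5 and 2.42 in KO_D2. Percentiles were 37.5 and 42.7 in untreated WT, 0 and 16.3 in untreated KO, 62.1 and 78.4 in WT after IFNγ, and 60.3 and 77.1 in KO after IFNγ. Every IFNγ library was above every untreated library. The mean was 69.5 ± 9.62 after IFNγ and 24.1 ± 19.7 untreated (SD, n = 4 each), a difference of 45.4 points (exact permutation test, two-sided p = 0.0286, and p = 0.125 paired within clones). It ranked 15 among all 22926 promoter regions, of which 0.737% (169) had all IFNγ above all untreated libraries and 10 the reverse. Without WT_IFNγ replicate 2 the difference was 42.4 points, and without KO_IFNγ replicate 2 it was 42.8 points (exact permutation p = 0.0571 for each).

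The 7 PARP14 promoter peaks all contained the ISRE core, with summits 5.5 to 420.5 bp from its centre and a median of 20.5 bp. The far value was from untreated WT replicate 1, where the summit lay 396 bp into the gene. Outside the promoter, PARP14 had a peak 1547 bp upstream in KO_IFNγ replicate 1 (fold 5.77) and an intragenic peak, chr3:122725271-122725551, in untreated WT replicate 2. Neither was found in a further library.

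PARP15 (chr3:122577628-122639047, plus strand), another mono-ADP-ribosyltransferase with macrodomains, had no peak at any of its 5 annotated starts, in its body or within 10 kb, before or after IFNγ, in WT or KO. Its main TSS lies 13.4 kb from that of PARP9. Since a peak list holds only sites that passed the caller, access below that level was not detectable at this depth.

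PARP12 (chr7:140023749-140062951, minus strand), a mono-ADP-ribosyltransferase with CCCH zinc fingers, had a promoter region in all 8 lists, chr7:140062430-140063577. In WT the fold enrichment was 26.0 and 18.3 untreated and 34.6 and 42.4 after IFNγ. In KO it was 22.9 and 17.2 untreated and 36.3 and 25.9 after IFNγ. The ratios within clones, 1.33 in WT_4, 2.32 in WT_5, 1.58 in KO_C5 and 1.50 in KO_D2, were all above 1. Percentiles were 62.5 and 65.7 in untreated WT, 66.3 and 53.8 in untreated KO, 79.3 and 83.1 in WT after IFNγ, and 81.1 and 78.8 in KO after IFNγ. The IFNγ libraries were close together and above all untreated libraries. The mean was 80.6 ± 1.96 against 62.1 ± 5.77 (SD, n = 4 each), a difference of 18.5 points (exact permutation test, two-sided p = 0.0286, and p = 0.125 paired within clones) that ranked 448 of 10237. All 8 peaks contained the ISRE core, with summits 0.5 to 38.5 bp from its centre. A second region, chr7:140058303-140058516, near an alternative start, was listed in WT_IFNγ replicate 2 alone (fold 4.13).

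PARP10 (chr8:143977153-144012772, minus strand), a mono-ADP-ribosyltransferase with RNA recognition motifs, has 21 annotated start positions and differed between them. At the main TSS the region chr8:143985831-143986657 was present in 5 lists. Its fold enrichment was 8.17 in untreated WT replicate 2 and no peak was listed in the other 3 untreated libraries. After IFNγ it was 5.02 and 26.5 in WT and 11.7 and 6.15 in KO. Percentiles after IFNγ were 11.8 and 78.6 in WT and 64.6 and 45.0 in KO, against 45.9 in the untreated library with a peak. Each clone was higher after IFNγ, by 11.8 to 64.6 points, but the treatment groups overlapped. The mean difference of 38.5 points (50.0 ± 29.0 against 11.5 ± 23.0, SD, n = 4 each) did not pass the test (exact permutation test, two-sided p = 0.0857). With lists cut to the 16730 strongest peaks it was 27.1 points, and without 1 library it was 29.0 to 51.3 points. None of these passed either.

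The other open PARP10 start, at chr8:143989798-143991154, is shared with the start of GRINA on the opposite strand, 9 bp from the median summit. This region was present in all 8 lists, with fold enrichment from 7.97 to 35.1. Percentiles were 76.2 and 70.9 in untreated WT, 67.3 and 44.4 in untreated KO, 72.4 and 71.9 in WT after IFNγ, and 67.0 and 57.8 in KO after IFNγ. The difference of 2.57 points was within the spread (exact permutation p = 0.771, n = 4 each), with 2 clones higher and 2 lower after IFNγ. The 2 starts of PARP10 are about 3.6 kb apart. A further region near a start, chr8:143983233-143983564, was listed in WT_IFNγ replicate 1 alone (fold 4.13).

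**Figure D2:**
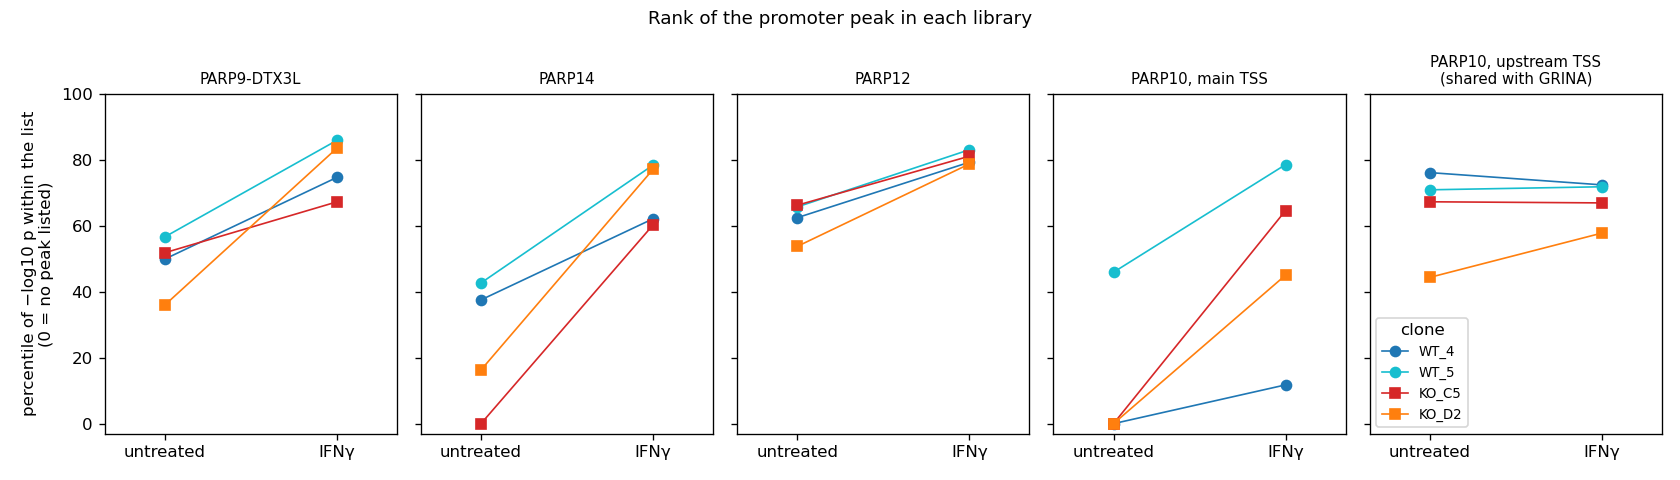
Percentile of −log10 p of the promoter peak within its own list (y axis, 0 where no peak was listed), untreated and after IFNγ, with 1 line per clone (circles WT, squares KO). All 4 lines go up at PARP9-DTX3L, PARP14, PARP12 and the main TSS of PARP10, and 2 of 4 go up at the PARP10 start shared with GRINA.

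**Figure D3:**
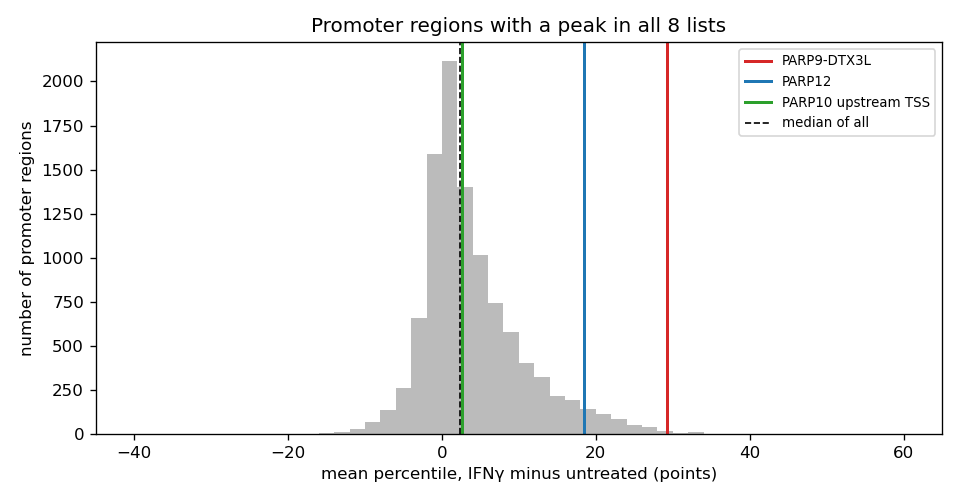
Difference in mean percentile, IFNγ minus untreated (x axis, percentile points), for the 10237 promoter regions open in all 8 lists (y axis, number of regions per bin of 2 points). The lines mark PARP9-DTX3L (29.3), PARP12 (18.5) and the PARP10 start shared with GRINA (2.57), and the dashed line the median of 2.30.

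In presence alone, the genes differed less. PARP14 was the 1 gene of the 6 with promoter peaks in more IFNγ than untreated libraries, since PARP10 always had its upstream peak. Over all genes with a promoter peak in some list, 21.2% had more IFNγ than untreated lists and 8.85% had fewer. At gene level, with the strongest promoter peak counted, 4 of the 6 genes had all IFNγ above all untreated libraries, with PARP9 and DTX3L counted on the same region. The share over all 22301 genes was 0.794% (177), and 11 genes showed the reverse. The median difference was 29.3 points over the 5 genes with a peak and 2.88 points over all genes. That median is the value of the region shared by PARP9 and DTX3L, which is counted for both genes. The other values were 45.4 (PARP14), 18.5 (PARP12) and 4.25 (PARP10).

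The fold enrichment was compared across all promoter regions in a linear model (limma) on log2 values centred in each library. The IFNγ difference, averaged over genotypes, was 1.06 ± 0.228 (log2, SE) at PARP9-DTX3L and 0.71 ± 0.186 at PARP12. Neither passed adjustment (adjusted p = 0.873 for both, limma), and they ranked 54 and 395 of 10237. At the PARP10 start shared with GRINA the difference was -0.17 ± 0.280 (adjusted p = 0.890). The test called 0 of the 10237 regions (0.0%), while 165 higher and 155 lower regions had an unadjusted p below 0.05, and the median region stood at -0.08. PARP14, open in 7 lists, entered only the model of the 12343 regions open in at least 6 lists, where untreated KO replicate 1 was left out of its fit. Its difference there was 1.22 ± 0.279 (adjusted p = 0.898). In simulated data with the same groups, 33 of 100 regions with a planted log2 change of 1 were recovered and 80 of 100 with a change of 2. There were 5 false calls. The simulated libraries were independent of each other, whereas libraries of 1 clone were correlated here (0.717 in WT, 0.412 in KO). These rates therefore need not hold for the real libraries.

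With the clone as a replicate block, which uses the pairing of untreated and treated libraries, the adjusted p was 0.172 at PARP9-DTX3L and 0.205 at PARP12. For the IFNγ difference averaged over genotypes, that model called 1 region, at IL15RA (1.99 ± 0.148, adjusted p = 0.00615). This gene encodes the receptor chain that presents interleukin 15. IL15RA is named here because it was the only region called, and was chosen after its values were seen.

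The IFNγ response was then compared between genotypes. In WT the log2 difference was 1.45 at PARP9-DTX3L, 1.51 at PARP14 and 0.87 at PARP12. In KO it was 0.67, 0.93 and 0.54. The PARP14 value in KO rests on 1 untreated library, since untreated KO replicate 1 listed no peak and was left out. The same holds for the difference of responses at PARP14 below. The KO value at PARP9-DTX3L depended on the library, at 0.25 without KO_IFNγ replicate 2 and 1.10 without KO_IFNγ replicate 1. The difference of the responses, KO minus WT, was -0.78 ± 0.456 at PARP9-DTX3L (adjusted p = 0.999, limma), -0.58 ± 0.558 at PARP14 (adjusted p = 0.999) and -0.34 ± 0.372 at PARP12 (adjusted p = 0.999). None passed the test. The value at PARP9-DTX3L was -0.36 without KO_IFNγ replicate 1 and -1.20 without KO_IFNγ replicate 2. At PARP12 it was -0.13 without WT_IFNγ replicate 1, -0.54 without WT_IFNγ replicate 2, -0.22 without untreated KO replicate 1 and -0.19 with no centring. On the percentile scale the within-clone differences at PARP9-DTX3L were 24.8 in WT_4, 29.3 in WT_5, 15.4 in KO_C5 and 47.6 in KO_D2, so the KO clones lay on either side of the WT clones. At PARP12 they were 16.8 and 17.3 in WT and 14.9 and 25.0 in KO, again with KO on either side. At PARP14 they were 24.6 and 35.7 in WT and 60.3 and 60.8 in KO, where the untreated level of KO was lower. The order of the genotypes at PARP14 was thus opposite on the percentile and log2 fold scales. The libraries behind the 2 scales also differ, since untreated KO replicate 1 counts as percentile 0 and is left out of the log2 fit.

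KO was compared with WT at each treatment. Untreated, the log2 difference in fold was -0.02 at PARP9-DTX3L, 0.07 at PARP14 and 0.51 at PARP12. The PARP14 value leaves out untreated KO replicate 1, which listed no peak. With that library set to 0, the mean untreated percentile at PARP14 was 8.14 in KO and 40.1 in WT. After IFNγ it was -0.80 ± 0.322 at PARP9-DTX3L (adjusted p = 0.554, limma), -0.51 at PARP14 and 0.17 at PARP12, of which none passed the test. The sign at PARP9-DTX3L turned when fragments at the summit replaced fold, to 0.77 untreated and 0.12 after IFNγ. With no centring it was -0.66 untreated and -1.29 after IFNγ. The value after IFNγ was -0.38 without KO_IFNγ replicate 1 and -1.22 without KO_IFNγ replicate 2. With 2 clones per genotype no permutation over clones can pass the threshold.

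The fragments behind these values were recovered from the fold and −log10 p of each peak, given how MACS2 computes both from a Poisson distribution. At PARP9-DTX3L the summit held 28 and 29 fragments in untreated WT, 51 and 92 in WT after IFNγ, 45 and 34 in untreated KO, and 80 and 117 in KO after IFNγ. In these fragments, which are not corrected for depth, the KO libraries were thus not the lower ones. The lowest background of a library was 0.906 and 1.08 in KO after IFNγ, and 0.621 and 0.770 in WT after IFNγ. Untreated, it was 0.719 and 0.626 in KO, and 0.656 and 1.02 in WT. The local background there was 0.830 to 1.37 fragments in the WT libraries and 3.64 to 6.13 in the KO libraries, so the ranges were far apart. At PARP14 the summit held 16 and 19 fragments in untreated WT and 34 and 61 after IFNγ, and in KO 19 (untreated replicate 2), 61 and 91. Its local background was 0.704 to 1.16 in WT and 2.33 to 5.33 in KO. At PARP12 the background differed less, 0.621 to 1.02 in WT and 0.972 to 1.66 in KO, with summits of 33 to 48 fragments untreated and 55 to 88 after IFNγ. At the main TSS of PARP10 the summits held 27 fragments in the untreated library and 11 to 75 after IFNγ.

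**Figure D4:**
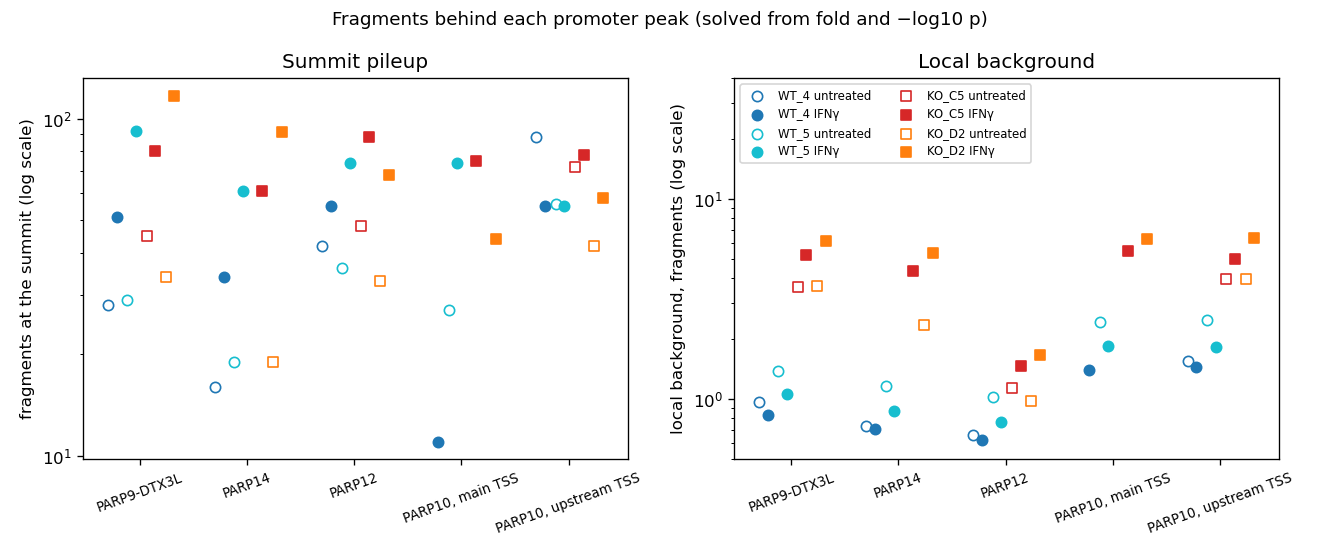
Fragments at the summit (left, log scale) and local background in fragments (right, log scale) of each listed promoter peak, by clone (circles WT, squares KO) and treatment (open untreated, filled IFNγ). At PARP9-DTX3L every filled point is above every open point on the left (51 to 117 against 28 to 45), and on the right the KO squares (3.64 to 6.13) lie above the WT circles (0.830 to 1.37).

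Set over the lowest background of the same library, the background at PARP9-DTX3L was 1.34 to 1.48 times that level in the 4 WT libraries and 5.07 to 5.83 times in the 4 KO libraries. Over all peaks the median was 1.51 to 1.63 in WT and 2.66 to 2.91 in KO, so a higher local background was found in KO lists in general. Within 1 Mb of the PARP9-DTX3L region the median over the other peaks was 1.51 to 1.61 in WT and 3.12 to 3.77 in KO. The part that local background plays in the lower KO fold at this promoter was not tested.

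Genes related to the 6 by function were counted in the same way. Of 12 other PARP family genes, all had a promoter peak in all 8 lists, and none had all IFNγ above all untreated libraries. Their median difference was 2.32 points, close to that of all genes, and TNKS (19.4) and ZC3HAV1, an antiviral PARP without catalytic activity (16.9, exact permutation p = 0.0571), had the largest. Of the 6 genes for removal of ADP-ribose, which include the glycohydrolase PARG (11.96 points), all were open in all 8 lists and none separated, with a median of 0.602 points. Of the 4 other deltex ligases, DTX2 and DTX3 had no promoter peak. DTX4 was open in 7 lists, and DTX1 in 5, namely all 4 WT libraries and 1 KO library.

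Of the 7 genes of interferon signalling counted here (STAT2, IRF1, IRF9, JAK1, JAK2, IFNGR1 and IFNGR2), 6 were open in all 8 lists. IRF9, a DNA-binding subunit of an interferon-activated complex, was open in 3 IFNγ and 2 untreated libraries. More IFNγ than untreated lists with a peak were found for 21.2% of all genes with a promoter peak in some list. The mean difference at IRF9 was 32.5 points and did not pass the test (exact permutation p = 0.314). The treatments overlapped, with 62.6 in untreated WT replicate 2 and 58.8 in KO_IFNγ replicate 2, and WT_4 had no IRF9 peak in either library. IRF1 was already near the top of every list, at 98.0 to 99.8, where a percentile has little room.

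**Figure D5:**
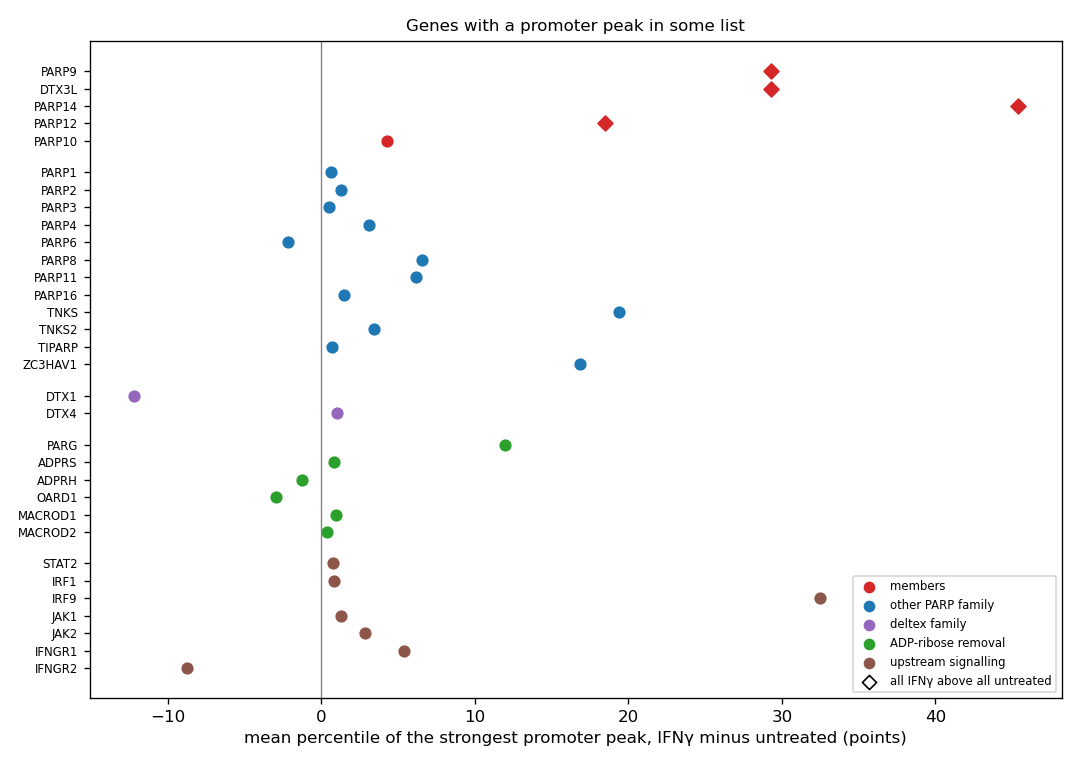
Difference in mean percentile of the strongest promoter peak, IFNγ minus untreated (x axis, percentile points), for each gene with a promoter peak in some list, by gene group (colours). Diamonds mark genes with all IFNγ above all untreated libraries (PARP9, DTX3L, PARP14 and PARP12), and PARP10 stands at 4.25 because its strongest peak is mostly the one shared with GRINA.

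The promoter regions most like PARP9-DTX3L over the 8 libraries, by Pearson r of centred log2 fold, were those of DOCK5 (r = 0.946), RCC1L (0.875), IRF1 (0.867), LTBP1 with a Y RNA gene (0.866) and ZFP36L1 (0.866). IRF1 encodes a factor that binds ISRE, and its log2 difference after IFNγ was 1.30, the highest of the 5, against 0.26 to 0.67 in the other four. PARP12 ranked 163 (r = 0.641) and the PARP10 start shared with GRINA had an r of 0.006. These values describe 8 points that share library and clone.

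Around PARP10, 13 regions lay in the gene body or within 10 kb, and most belonged to its neighbours. By nearest coding TSS, 4 were at PLEC, 3 at GRINA and 1 at SPATC1. Of the 5 nearest to PARP10, that at the main TSS was described above. The others were chr8:143982436-143982904 in 3 lists, chr8:143983233-143983564 in 1, chr8:144014593-144014849 in 1 and chr8:144019817-144020124 in 4.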

How the data were processed

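Per the labels and the study's methods, the authors trimmed reads with Trimmomatic, aligned them to GRCh38 with Bowtie2 2.2.5, dropped poorly mapped reads with SAMtools 1.14 and ran MACS2 2.2.7.1 in paired-end mode on each library. Whether input DNA was the control is not given in the sources used here. The deposited fold enrichment is a ratio of summit pileup to local background after the same constant is added to both. Fragments divided by background therefore do not give the fold, and the gap is largest where the background is low. MACS2 also gave each peak's deposited −log10 p and its −log10 q, and the deposited score, a multiple of −log10 q, was not used.

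TSSs were from GENCODE 44. Fragments at the summit were solved for 99.48% to 100.0% of peaks per library. Percentiles were compared by exact permutation of the 8 libraries (70 assignments), and log2 fold, centred on the library median, with limma 3.58.1 in R 4.3.3 with Benjamini-Hochberg adjustment and 1 coefficient per group. The labels pair the untreated and treated library of each clone, and their deviations from group means correlated at 0.717 in WT and 0.412 in KO. The limma p-values with 1 coefficient per group measure the spread between the clones of a group and do not use the pairing. The permutation over 70 assignments also ignores the pairing, and its spread includes the difference between genotypes. The sign-flip and clone-block p-values measure the spread of the differences within clones. Alternatives were other measures, centring, windows, thresholds and list lengths, the clone block and the omission of each library. The code was tested on simulated data. Some genes of the lists are not reported here. The members and lists were chosen with earlier results of these data known; named genes are the members, list genes whose presence varies or that differ, and the 5 promoters most like PARP9-DTX3L.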

Additional observations from a re-analysis of the deposited data

Results flagged for a closer look

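The percentile at the main TSS of PARP10 in untreated libraries was 45.9 in WT replicate 2, while the other 3 untreated libraries listed no peak there and were set to 0. Dixon's ratio marked this library, 1 of 10 arms examined. With 3 tied zeros that ratio would be the same for any other value, so it carries no information here, and the usual rate of about 1 in 20 groups by chance does not apply. The list of WT replicate 2 was the longest of the untreated ones, with 29567 peaks.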

How the results depend on the processing

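With sign flips within clones as a replicate block, the percentile differences of 29.3 (PARP9-DTX3L), 45.4 (PARP14) and 18.5 (PARP12) had p = 0.125 (exact permutation), the smallest that pairing allows, and all 4 clones were higher in each. With the clone block in limma no promoter of the 6 genes was called. No block could be fitted for genotype, since a clone has 1 genotype. Leaving out each library in turn moved the PARP14 percentile difference between 37.3 and 51.5 points, and the 29.3 and 18.5 points of PARP9-DTX3L and PARP12 kept p = 0.0286 (exact permutation). That is the smallest p possible with 1 library left out. Omission of a library cannot make separate groups overlap, so the unchanged p adds no support. The PARP10 start shared with GRINA had no stable sign. Its percentile difference was -8.83 with lists cut to the 16730 strongest peaks, and -4.20 to 6.396 without 1 library. Its log2 difference after IFNγ was then -0.396 to 0.0602 on average, -0.57 to 0.35 in WT and -0.511 to 0.0569 in KO, and its difference of responses was -0.57 to 0.34, and 0.0306 with no centring. Differences between genotypes also turned. Untreated PARP9-DTX3L, -0.02, became 0.77 with summit pileup, -0.66 with no centring, and -0.124 to 0.0871 without 1 library. With a rank percentile in place of log2 fold in the model, it became 6.61 points. That rank scale differs from the percentile within the list used above, on which untreated KO had the lower mean (43.9 against 53.3 in WT). After IFNγ the PARP9-DTX3L difference became 0.12 with summit pileup, -1.29 with no centring and -1.22 to -0.38 without 1 library. PARP12 became -0.13 untreated with no centring. After IFNγ PARP12 became -0.10 with summit pileup, -0.83 points on the rank scale of the model, -0.32 with no centring and -0.0311 to 0.381 without 1 library. The cause of these turns was not tested. For the IFNγ difference averaged over genotypes, IL15RA was the 1 region called with the clone block and also with no centring (adjusted p = 0.00340, limma), while all other models called 0. Calls for the other comparisons were not counted over all regions in the alternative models. The percent of libraries with a peak moved in 9 of the alternatives for treatment and 13 for genotype, at PARP14 and the main TSS of PARP10 alone. The PARP14 log2 values rest on the fit of regions in at least 6 lists and have no alternatives. Peak lists give no reads outside peaks, so a site under the caller's limit cannot be compared.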
